A study of Oryctolagus cuniculus with 54 samples.

Results

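Lung transcriptomes of rabbit pups 6 days after term birth (T37) were compared with those of pups taken on the day of term birth (T31). The comparison held every T37 and T31 library of sequencing run 3, which came to 4 T37 animals and 3 T31 animals, 7 of the 54 libraries and 45 animals of the series. The pups were New Zealand White rabbits born naturally on day 31 of gestation. T37 pups then stayed with their mothers in room air, whereas T31 lungs were collected immediately after birth. The fetal groups used below (F20 to F29, named by day of gestation) were taken by C-section. Their dams were sedated with medetomidine, ketamine and xylazine and euthanized with pentothal, and the fetal lungs were collected at once. The pups of every group, T31 and T37 included, were themselves euthanized with an overdose of pentothal before the lungs were taken. The methods state that lungs at a time point came from pups of different dams. RNA was prepared from the right lung as a whole homogenate, so that fewer cells of a type and less RNA per cell cannot be told apart in any value given here. At F20 and F23 both lungs were used instead of the right lung. The sex of the pups and the hour of collection were not given in the sources used here.

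In rabbits alveoli begin to form before birth, and after it they continue to multiply while the septa between them thin and the capillary bed matures. Birth itself brings the first breaths, clearance of lung liquid, a rise in oxygen and a surge of stress hormones. The comparison asks how far expression had moved from the day of birth once the pups had breathed air for 6 days.

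The libraries held 6943764 to 7313919 counts at T37 and 7108497 to 8073755 at T31, and 15176 to 15841 genes had at least 1 read. Genes carry Ensembl identifiers without symbols in the count table, and of the 29587 identifiers 0 were found in the gene name table used here. Genes are therefore described as groups, 4 of them are given by identifier, and the lung markers that would check the tissue could not be looked up. The rank correlation of log2 levels over the genes tested was 0.967 to 0.982 among the 6 pairs of T37 libraries (median 0.973) and 0.948 to 0.966 among the 3 pairs of T31 libraries (median 0.958). Between the time points it was 0.935 to 0.968 in 12 pairs, a range that covered all T31 pairs. The T31 animals also varied more gene by gene. The median standard deviation of log2 CPM (counts scaled to a common library size) was 0.40 at T31 and 0.27 at T37, and 67.8% of the genes had the larger value at T31. T31 animal 18 and T37 animal 27 correlated least with the other animals of their groups (mean rank correlation 0.953 and 0.968).

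Of 13032 genes tested with edgeR's quasi-likelihood test, 303 (2.33%) differed at more than a 2-fold change and an adjusted p of at most 0.05. Higher at T37 were 215 genes (1.65%), called risen genes in what follows, and lower were 88 (0.675%), called fallen genes. The risen genes had a median log2 fold change of 1.65 (quartiles 1.29 and 2.31, median SE 0.31), and 72 of them changed by more than 4-fold. The fallen genes had a median of -1.43 (quartiles -2.03 and -1.16, median SE 0.27), with 24 beyond 4-fold. The median over all genes tested was 0.003. In all 303 called genes the T37 libraries lay wholly above or wholly below the T31 libraries, as they did in 2626 (20.2%) of the genes tested, 1401 higher (10.8%) and 1225 lower (9.4%) at T37.

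The number of calls and the genes called depended strongly on single animals. Without T37 animal 46 only 6 genes were called, without animal 47 there were 11 and without animal 12 there were 63, whereas without T37 animal 27 the number was 476. Without T31 animal 18 it was 187, of which 126 were among the 303. Without T31 animal 4 it was 227, with 148 among the 303, and without T31 animal 11 it was 278, with 164 among them. Since the 303 genes were chosen from the same 7 libraries, which did not overlap in any of them, their direction without 1 animal is no test. Of these genes 265 to 299 had an estimate beyond 2-fold in the 7 fits, and the median log2 fold change of the risen genes stayed between 1.51 and 1.77. The number of genes at an unadjusted p under 0.05 was 2839 (21.8%) with all animals and between 2034 and 3011 in these fits. 6 genes, 5 of them risen, were called in all 7.

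**Figure D1:**
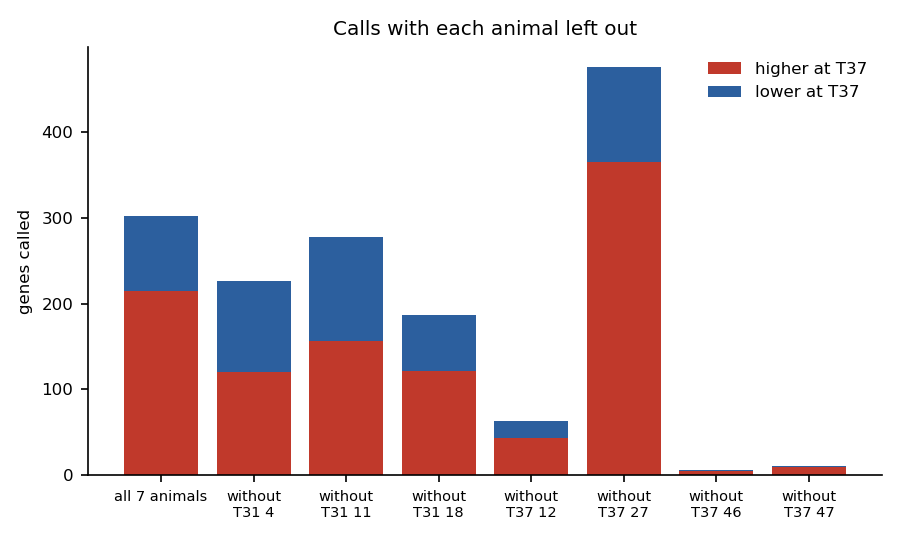
The bars give the number of genes called between T37 and T31 (vertical axis) with all 7 animals and with each animal left out, split into genes higher at T37 (red) and lower at T37 (blue). The bars drop to 6 and 11 genes without T37 animals 46 and 47 and reach 476 without T37 animal 27.

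Calls were spread over the whole range of expression. From 4 CPM upwards the percentage of genes called lay between 2.6 and 3.38, but among the 2778 genes at 1 to 4 CPM it was 1.01, and among the 834 genes below 1 CPM it was 0.24. The 95% interval of the log2 fold change reached a median of 1.21 to either side at 1 to 4 CPM and 0.38 in the most abundant class, so in weakly expressed genes most changes near 2-fold were not detectable at this depth. Among the 651 genes of the most abundant class 8 rose and 14 fell, while at 16 to 64 CPM 84 rose and 24 fell. A further 1320 genes had an estimate beyond 2-fold that did not pass the test. For 6089 genes (46.7%) the whole interval lay within a 2-fold change in either direction.

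**Figure D2:**
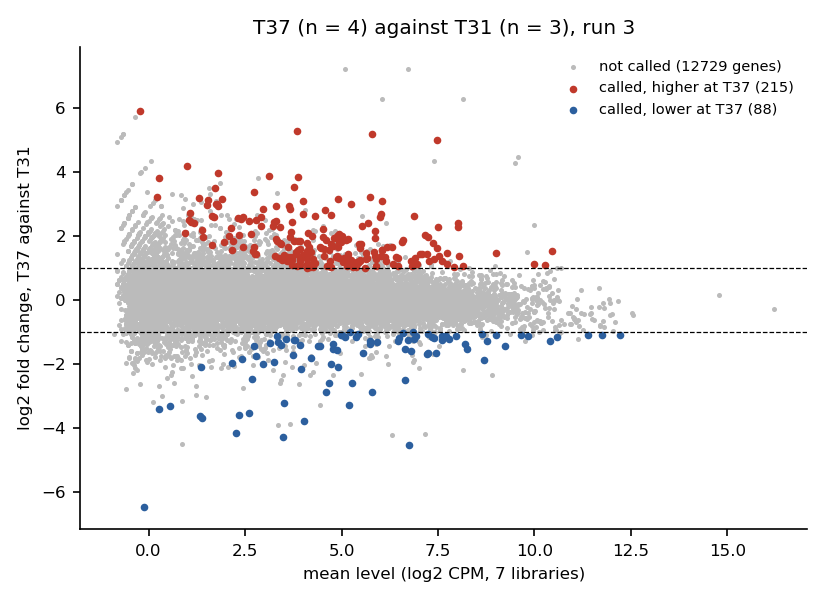
Each point is 1 of the 13032 genes tested, placed by its mean level over the 7 libraries (log2 CPM, horizontal) and its log2 fold change at T37 against T31 (vertical), with dashed lines at a 2-fold change. The 215 red and 88 blue points are called, and they extend over nearly the whole range of levels.

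In terms of reads, the risen genes took 0.487% to 0.687% of the counts of the T31 libraries and 1.51% to 2.24% of those of the T37 libraries. The fallen genes took 2.56% to 3.68% at T31 and 1.40% to 1.62% at T37. The fallen genes were the more abundant group at birth, with a median of 62.0 CPM at T31 and 21.7 CPM at T37, whereas the risen genes had a median of 10.2 CPM at T31. 1 risen gene had no read in any T31 library, as had 6 of all 13032 genes tested. 1 fallen gene had none in any T37 library, as had 1 of all genes tested. Such a gene was tested only if it reached 0.5 CPM in at least 3 libraries of the other group. These counts therefore say little about the called genes.

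The animals were not evenly placed within these groups of genes. The genes were chosen from these same 7 libraries, and positions over all genes tested were not counted. Whether the placement is particular to the called genes was therefore not tested. T37 animal 27 had the lowest T37 level, the one nearest to T31, in 140 of the 215 risen genes and in 41 of the 88 fallen genes its level was the highest of the T37 animals. T37 animal 46 lay at the far end in 101 risen and 41 fallen genes. On the side of T31, animal 18 was the farthest from T37 in 99 risen and 52 fallen genes, and animal 11 was the nearest in 107 and 45.

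The 4 genes given by identifier are the largest changes in each direction among called genes that reached 10 CPM in the higher group. ENSOCUG00000034082 was nearly silent at birth. It had 6, 1 and 6 reads in T31 animals 4, 11 and 18, or 0.855, 0.150 and 0.865 CPM. In T37 animals 12, 27, 46 and 47 it had 189, 38, 282 and 212 reads, or 25.9, 5.46, 38.3 and 29.4 CPM. The groups were far apart, and animal 27 was the lowest T37 animal by a wide margin. The log2 fold change was 5.27 (SE 0.77), with an adjusted p = 0.0163 in edgeR. The call was lost without T37 animal 46 (adjusted p = 0.0629) and without animal 47 (0.0598), while the change stayed at 4.95 and 5.16.

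ENSOCUG00000034082 showed no fetal phase of high expression. Within run 3 it reached at most 0.820 CPM in the 11 fetal libraries from F20 to F28, and both F28 libraries had 0 reads, which allows up to 0.436 and 0.438 CPM. At T35, 4 days after birth, the run 3 animals had 22.6 and 7.35 CPM, and at T42, 11 days after birth, the 3 animals had 24.1 to 26.8 CPM. The T42 values fell inside the range of T37.

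ENSOCUG00000039606 rose from 3.70, 3.00 and 1.30 CPM in T31 animals 4, 11 and 18 to 200.2, 92.8, 48.4 and 43.9 CPM in T37 animals 12, 27, 46 and 47. Every T37 animal was far above the highest T31 animal, and the T37 animals spread over a wide range among themselves. The log2 fold change was 5.16 (SE 0.66), with an adjusted p = 0.0132 in edgeR. Without T37 animal 12, the highest, it was 4.50 (adjusted p = 0.0192). In the fetal libraries of run 3 it stayed between 0.876 and 4.41 CPM. It was at 35.3 and 137.0 CPM in the 2 T35 animals and at 82.1 to 134.5 CPM in the 3 T42 animals, so that the 3 later time points overlapped.

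ENSOCUG00000013068 showed the largest fall of this abundance. T31 animals 4, 11 and 18 had 488.0, 88.1 and 157.0 CPM, and T37 animals 12, 27, 46 and 47 had 6.31, 14.1, 13.3 and 8.59 CPM. The lowest T31 value was well above the highest T37 value. The log2 fold change was -4.53 (SE 0.56), with an adjusted p = 0.0132 in edgeR, and without T37 animals 46 or 47 the adjusted p was 0.0568 or 0.0547. Without T31 animal 4, the highest, the log2 fold change was -3.56 (adjusted p = 0.0152). Before birth the gene had climbed in run 3 from 4.43 to 17.5 CPM at F20 to 144.8 and 355.7 CPM in the 2 F28 animals. After birth it was at 0 and 20.0 CPM in the 2 T35 animals, where 0 reads allow up to 0.426 CPM, and at 0.304 to 4.07 CPM at T42.

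ENSOCUG00000028083 followed a like course at a lower level. It was at 49.9, 5.69 and 18.2 CPM in T31 animals 4, 11 and 18 and at 0.686, 1.44, 1.90 and 0.970 CPM in T37 animals 12, 27, 46 and 47. The log2 fold change was -4.28 (SE 0.68), with an adjusted p = 0.0196 in edgeR, and without T37 animals 12, 46 or 47 the adjusted p was 0.0705, 0.0695 or 0.0792. Without T31 animal 4 the log2 fold change was -3.27 (adjusted p = 0.0345). The order of the T31 animals was that of ENSOCUG00000013068, with animal 4 the highest and animal 11 the lowest. In run 3 the gene was at 0.124 to 0.926 CPM at F20, at 19.5 and 41.8 CPM in the 2 F28 animals and at most at 1.54 CPM at T42.

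**Figure D3:**
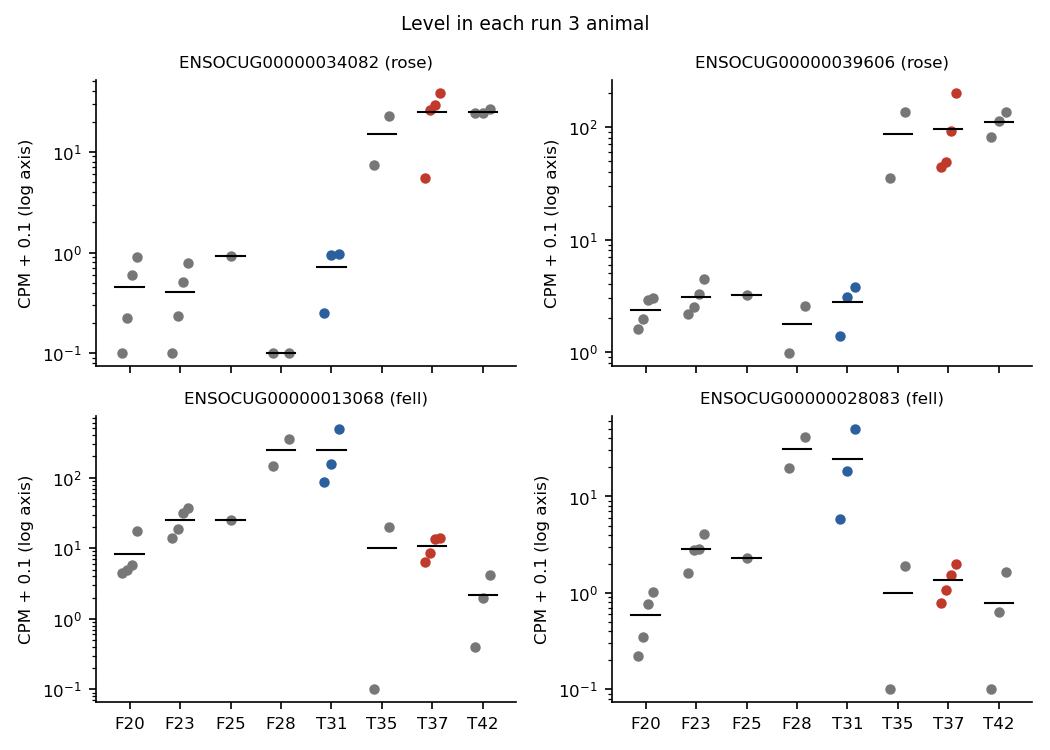
Each panel gives 1 gene, with a point for each run 3 animal (CPM plus 0.1 on a log axis) at each time point from F20 to T42 and a line at the mean of the time point. T31 animals are blue, T37 animals red and others grey. In all 4 panels the red points lie apart from the blue ones, which the choice of these genes required.

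The other time points of run 3 show where T31 and T37 stand in the course of the called genes. The risen genes were not at their lowest in the early fetus. Their median level was 5.18 log2 CPM at F20, 5.13 at F23, 5.05 at F25 (1 animal) and 4.67 at F28, followed by 3.38 on the day of birth (T31), 4.59 and 4.93 on days 4 and 6 after it and 4.64 on day 11. T31 was the lowest of the 8 time points, and the library medians at T31 (3.27 to 3.58) lay below those of every other library of the fetal and term time points of run 3. The fallen genes had medians of 2.67 at F20, 3.71 at F23, 4.91 at F25 and 5.55 at F28, their highest value at T31 (5.83), and 5.10, 4.44 and 4.71 at T35, T37 and T42. Over all 13032 genes the median stayed between 3.85 and 3.97. Since the T31 and T37 libraries chose these genes, the levels at those time points are a description of the choice.

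In libraries that had no part in the choice, the fetal rise of the fallen genes was plain. Between F20 (4 animals) and F28 (2 animals) of run 3 the level went up in 81 of the 88 fallen genes (92%), and in 66 (75%) by more than 2-fold, against 51.5% and 17% of all genes tested. Of the 215 risen genes 65.1% went down over the same step and 39.5% by more than 2-fold, against 48.5% and 13.4% of all genes. Whole lungs were used at F20 and right lungs at F28, so age and the part of the lung move together in this step.

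T42 was set against F28 in run 3, which again used none of the 7 libraries. F28 pups were taken by C-section and T42 pups were born naturally, so age and delivery cannot be told apart in this step. The risen genes were close to their late fetal level at T42, with a median log2 difference of 0.08. Of these 167 lay within a 2-fold difference, 46 (21.4%) were more than 2-fold higher at T42 and 2 were more than 2-fold lower, while 9.19% of all genes were more than 2-fold higher. The fallen genes had a median difference of -0.75. Of these 49 lay within 2-fold, 33 (37.5%) were more than 2-fold lower and 6 were higher, while 3.83% of all genes were more than 2-fold lower.

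**Figure D4:**
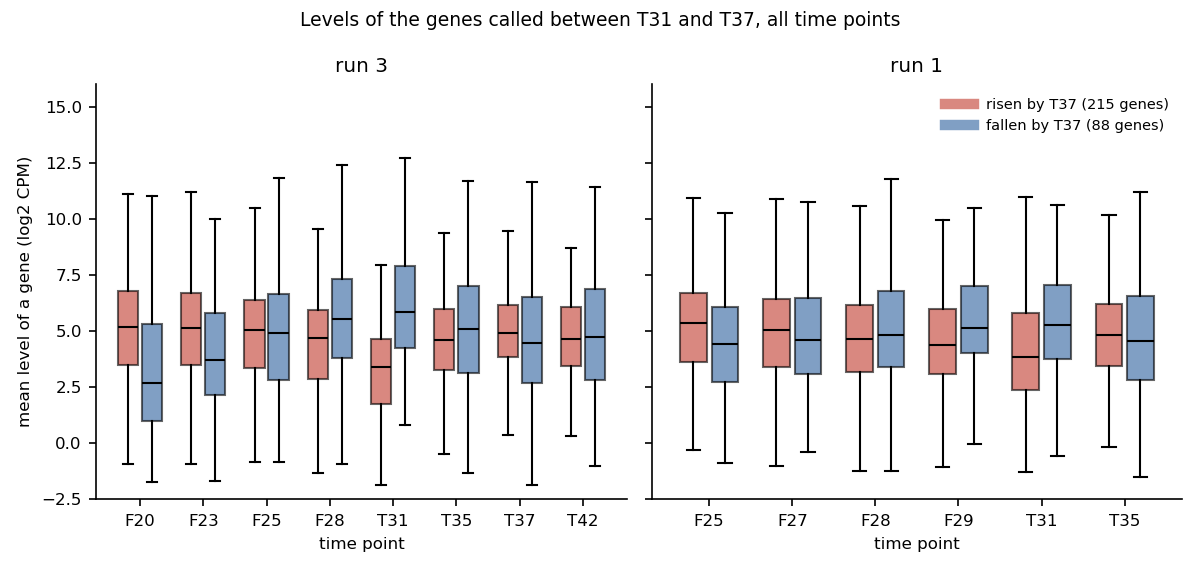
The boxes give the mean level (log2 CPM) of the 215 risen genes (red) and the 88 fallen genes (blue) at each time point of run 3 (left) and run 1 (right), with the median, the quartiles and whiskers to the last gene within 1.5 times the box length, genes beyond them not drawn. In both runs the median of the red boxes is lowest and that of the blue boxes highest at T31. The red median at T31 is 3.38 in run 3 and 3.84 in run 1, in different animals.

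A separate set of animals was available in run 1, with 3 T31 and 3 T35 pups that share no library and no animal with the 7 above. With the same test 24 of 13167 genes were called between T35 and T31 (0.182%), 18 higher (0.137%) and 6 lower (0.0456%) at T35, and 1501 genes (11.4%) had an unadjusted p under 0.05. The 2 T35, the 2 F28 and the 1 F25 animals of run 3 were sequenced in run 1 too, so their levels in the 2 runs are not separate evidence. Without T35 animal 6 the number was 13, and without T35 animal 11 it was 84. 6 genes were called in both comparisons, 3 higher and 3 lower in each, which is 1.98% of the 303 and 25% of the 24. ENSOCUG00000034082 was among them, with a log2 fold change of 3.97 (SE 0.53, adjusted p = 0.0283 in edgeR).

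Although few genes passed the test in run 1, the genes called at T37 had for the most part moved the same way by T35. Of the 214 risen genes tested there 176 (82.2%) were higher at T35, 81 of them by more than 2-fold and 0 in the opposite direction by more than 2-fold. Of the 86 fallen genes 74 (86%) were lower, 25 by more than 2-fold, and again 0 by more than 2-fold in the opposite direction. Among all genes with a positive change at T37 the share with the same sign in run 1 was 56.9%, and among those with a negative change it was 59.6%. In run 1 the median change was 0.59 on the log2 scale for the risen genes and 0.67, in the direction of the fall, for the fallen genes. The genes were chosen for a change beyond 2-fold in run 3, which by itself makes their changes in other animals smaller, so these medians are not set against those of run 3. The other 3 genes given by identifier had log2 fold changes at T35 of 3.40 (SE 0.89, adjusted p = 0.21, ENSOCUG00000039606), -5.51 (SE 1.29, adjusted p = 0.178, ENSOCUG00000013068) and -5.88 (SE 1.00, adjusted p = 0.0998, ENSOCUG00000028083) in edgeR's test.

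**Figure D5:**
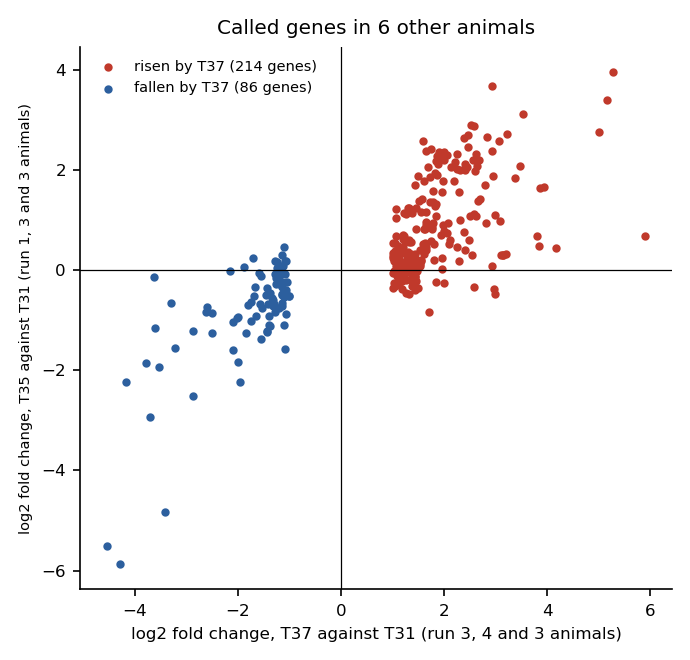
Each point is a gene called between T37 and T31, placed by its log2 fold change at T37 against T31 in run 3 (horizontal) and by that at T35 against T31 in the 6 animals of run 1 (vertical). Of the 214 red points 176 lie above the horizontal line at 0, and of the 86 blue points 74 lie below it.

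Run 1 also held 3 F29 animals, 2 days before term. F29 pups were taken by C-section from drugged dams and T31 pups were born naturally, so age and delivery cannot be told apart here. From F29 to T31 the risen genes went down in 160 of 215 cases (74.4%), against 48.5% of all genes, with a median log2 difference of -0.29. The fall exceeded 2-fold in 17.2% of them and in 2.25% of all genes. This step shares its T31 animals with the run 1 comparison above. The medians of the risen genes in run 1 went from 5.38 log2 CPM at F25 over 5.04, 4.64 and 4.36 at F27, F28 and F29 to 3.84 at T31 and 4.81 at T35. The summed level of the risen genes was not lower at T31 in run 1, with 14146 to 15826 CPM at T31 and 14101 to 15561 CPM at F29. In run 3 the sum was 5663 to 7204 CPM at T31 and 15063 to 15141 CPM at F28. The run 3 T31 libraries chose these genes, so the low sum there follows from the choice. Run 3 also held no F29 animals, and the sums of the runs are not set against each other. The fallen genes changed little from F29 to T31 (54.5% higher, 51.5% of all genes, median log2 difference 0.07).

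The change to T37 was also tested against the change to T35, as the difference of the log2 fold changes over all 13 libraries of runs 3 and 1. This difference passed the thresholds in 10 of 14052 genes (0.0712%), with 9 more positive (0.064%) and 1 more negative (0.00712%) by T37, and 1571 genes (11.2%) had an unadjusted p under 0.05. It rested on single animals. There were 44 genes without T37 animal 27 and 42 without run 3 T31 animal 4, but 2 without run 3 T31 animal 11, and 1 without T37 animal 46 or 47 or run 1 T31 animal 1 or 15. With edgeR there were 0 without run 3 T31 animal 18, T37 animal 12, run 1 T31 animal 10 or T35 animal 1, 6 or 11, where 1180 to 1724 genes had an unadjusted p under 0.05. None of the 4 genes given by identifier was among the 10, and their differences were 1.31 (SE 1.08), 1.78 (SE 1.19), 0.99 (SE 1.37) and 1.60 (SE 1.40) on the log2 scale in the order given above. These errors leave room for differences of more than 4-fold, so equal changes by T35 and T37 are not shown. Age and run move together in this test and cannot be told apart.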

How the data were processed

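Total RNA of rabbit right lungs, or of whole lungs at F20 and F23, was sequenced with QuantSeq FWD, which reads transcripts near their 3′ end. The authors trimmed adapters with BBduk, used STAR for alignment to OryCun2.0 and HTSeq with the Ensembl annotation for counting. A custom script of theirs handled unannotated 3′ UTRs, and whether its reads are in the deposited table was not stated. Tool versions are not given in the sources used here. The deposited values are raw counts per gene without normalization, and 0 columns were unmapped.

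Libraries were grouped by their titles. Genes reaching 0.5 CPM in 3 or more libraries of a fit were tested with edgeR 4.0.16 in R 4.3.3 (quasi-likelihood, TMM, Benjamini-Hochberg), and called where the adjusted p was 0.05 or less and the change exceeded 2-fold, thresholds of the study, which used limma-voom. SE is the log2 fold change divided by the root of F. CPM values are TMM-normalized within a run, and log2 CPM used a prior count of 2. In counts simulated for T37 against T31, 50 genes each were changed by 1, 1.5, 2 and 3 on the log2 scale. All of them lay above 4 CPM on average, and 20%, 74%, 80% and 98% were called, with 9 false calls among 12757 genes. Recovery below 4 CPM was not simulated. Counts were drawn for each gene independently, so shifts of a whole animal were not simulated and the 9 false calls do not cover them. Alternatives used limma 3.58.1 and DESeq2 1.42.0, and figures matplotlib 3.10.9. The animals, comparisons and lists were chosen with earlier results of these data known. Genes given by identifier were the 2 largest rises and 2 largest falls among 256 called genes with at least 10 CPM in the higher group and no overlap between the groups. Gene lists by symbol were planned but could not be applied, as no table pairs identifiers and symbols. Reads carry no molecular identifiers, so floors from 0 reads (3 counts) cover counting error only.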

Additional observations from a re-analysis of the deposited data

Results flagged for a closer look

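In ENSOCUG00000013068 1 of the 4 F20 animals stood apart from the others of its time point, at 17.5 CPM while the other animals were at 4.43 to 5.76 CPM. In all 21 groups of 4 animals were examined in this way, and chance marks about 1 in 20. The change to T37 in run 3 differed from the change to T35 in run 1 in 10 genes by the test of the difference itself, of which 0 were among the 4 genes given by identifier.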

How the results depend on the processing

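The 303 calls between T37 and T31 became 178 with limma-voom, 692 with DESeq2, 507 without a filter on low counts and 13 with glmTreat at a fold change of 1.5. They became 836 with all 24 libraries of run 3 in 1 fit, of which 295 were among the 303. These 24 include 1 preterm pup (P7), delivered by C-section, fed milk formula and taken 7 days after delivery. With all 6 T31 animals among 36 animals of runs 1 and 3 they became 914, of which 237 were among the 303, and 248 of the 303 had an estimate beyond 2-fold. In that fit the log2 fold change of ENSOCUG00000039606 was 4.53. Median-of-ratios factors (301), a minimum of 10 counts in each library (322) and the adjusted p alone (426) stayed within 1.5 times. Scaling by library size alone gave 452 calls, of which 84.5% were higher at T37 (71.0% with TMM), as it moved the median of all genes up by 0.15 on the log2 scale. Leaving out 1 animal gave 6 to 476 calls, and leaving out T31 animal 18 and T37 animal 27 together, an alternative chosen after seeing the data, gave 523, of which 231 were among the 303, and a log2 fold change of 5.89 for ENSOCUG00000034082. The signs of the 303 genes under these alternatives are no test, since the genes were chosen from the same libraries. With limma-voom ENSOCUG00000034082 and ENSOCUG00000028083 missed the threshold (adjusted p = 0.0947 and 0.0714). Over its alternatives the adjusted p of ENSOCUG00000034082 ran from 4.2e-12 to 0.0947, and that of ENSOCUG00000028083 from 3.37e-09 to 0.0792. The cause of these shifts was not tested.

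The 24 calls between T35 and T31 in run 1 became 234 with DESeq2 and 121 without a filter, and 13 to 84 with 1 animal left out. The 10 genes of the difference test, which was chosen after seeing the data, were 8 with limma-voom and 0 to 44 with 1 animal left out. In the fits with 0 calls 1180 to 1724 genes had an unadjusted p under 0.05 in edgeR. No paired analysis was possible because the T37 and T31 animals are different pups and the labels do not give their dams. Counts of gene list members were not run, since the identifiers could not be paired with symbols.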
